A study of Mus musculus with 8 samples.

Results

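The unfolded protein response and the integrated stress response were examined through 32 genes, each found in 1 row of a table of 25572 genes by its symbol. An ATF4 arm of 18 genes held the transcription factor Atf4, factors that act with it or downstream of it, and its targets. An arm of 14 genes held Xbp1 and the endoplasmic reticulum (ER) chaperones, folding enzymes and degradation factors that ATF6 and XBP1 induce. By their labels the libraries came from tumour-infiltrating neutrophils of C57/B6 mice bearing PyMT-N tumours. The cells were parted by flow sorting into those with high surface ICAM1 (CD54-positive in the sample titles) and those with low surface ICAM1 (CD54-negative). ICAM1, whose other name is CD54, is bound by leukocyte integrins in cell adhesion. Each fraction had 4 libraries, numbered 1, 2, 3 and 5, each made from 150 pg of total RNA. The labels give no treatment, genotype, age or time point, say nothing further of the PyMT-N tumour, and do not say whether libraries of a fraction came from separate mice, so a p-value here reflects only how these libraries vary, which may in part be technical.

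Cells answer misfolded protein in the ER through 3 sensors. IRE1 (gene Ern1) splices the Xbp1 mRNA, ATF6 is cut to release a transcription factor, and both then raise chaperone genes. PERK (Eif2ak3) phosphorylates the translation factor eIF2 alpha, as do other kinases that sense amino acid shortage, heme shortage or double-stranded RNA. This lowers general translation but favours that of ATF4, which induces amino acid transporters, synthetic enzymes, stress brakes and the factor CHOP (Ddit3). ATF4 is controlled largely at translation and XBP1 by splicing, and neither step is measured by a count of reads per gene. Developing eosinophils and plasma cells depend on XBP1, developing neutrophils much less so.

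Control sequences known for each arm were sought in the members' promoters, and the matches are shown because ATF6, XBP1 and ATF4 are known to act through them. The arms are lists of genes and were not made by a search for these sequences, but known targets and known sites are not independent. The shares below are therefore a description and no test of the arms. In the 250 bases before the annotated start, the ER stress element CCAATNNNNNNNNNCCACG, bound by ATF6 together with NF-Y, was sought on both strands, as were TGACGTG, a site of XBP1 and ATF6, and TGATGNAA, the composite site of C/EBP and ATF4. Sequences are from RefSeq (GRCm38.p6), another build than the GRCm39 of the counts, and 30 of the 32 genes matched by symbol. Slc7a5 and Manf had no entry. The ER stress element was present in 6 of 13 matched genes of the ATF6 and XBP1 arm, in 0 of 17 of the ATF4 arm and in 0.113% of all 32851 promoters. The composite site was present in 5 of 17 genes of the ATF4 arm, in 1 of 13 of the other arm (Herpud1) and in 3.45% of all promoters. TGACGTG was present in Hspa5 alone among the matched genes and in 1.65% of all promoters. A match is a description of letters and does not show binding, and genes without one may hold sites outside the window. The elements with 12 bases on each side follow, written 5′ to 3′ along the gene's own strand with the match in capitals. A match on the opposite strand reads as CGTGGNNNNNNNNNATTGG or as TTNCATCA.
Hspa5 (chr2:34772013-34772055, plus strand): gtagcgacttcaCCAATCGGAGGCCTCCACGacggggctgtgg
Pdia6 (chr12:17266479-17266521, plus strand): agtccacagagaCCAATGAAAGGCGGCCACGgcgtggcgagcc
Canx (chr11:50325788-50325830, minus strand): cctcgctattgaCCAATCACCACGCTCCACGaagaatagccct
Hsp90b1, farther from the start (chr10:86705626-86705668, minus strand): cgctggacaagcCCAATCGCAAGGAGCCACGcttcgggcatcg
Hsp90b1, nearer the start (chr10:86705521-86705563, minus strand): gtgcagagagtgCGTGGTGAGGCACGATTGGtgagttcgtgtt
Calr (chr8:84847063-84847105, minus strand): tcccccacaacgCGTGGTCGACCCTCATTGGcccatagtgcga
Creld2 (chr15:88819508-88819550, plus strand): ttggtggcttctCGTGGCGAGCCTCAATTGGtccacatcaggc
Asns (chr6:7693213-7693244, minus strand): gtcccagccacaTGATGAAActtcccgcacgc
Chac1 (chr2:119351037-119351068, plus strand): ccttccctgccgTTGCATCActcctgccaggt
Nupr1 (chr7:126625561-126625592, minus strand): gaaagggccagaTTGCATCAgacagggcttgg
Vldlr (chr19:27216808-27216839, plus strand): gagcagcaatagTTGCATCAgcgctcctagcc
Herpud1 (chr8:94386305-94386336, plus strand): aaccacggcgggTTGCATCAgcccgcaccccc

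Slc7a11 held 2 composite sites, one on each strand, at 66 to 59 and 47 to 40 bases before the start. Its promoter is given whole to show both sites in place.
Slc7a11 (chr3:50443614-50443863, minus strand): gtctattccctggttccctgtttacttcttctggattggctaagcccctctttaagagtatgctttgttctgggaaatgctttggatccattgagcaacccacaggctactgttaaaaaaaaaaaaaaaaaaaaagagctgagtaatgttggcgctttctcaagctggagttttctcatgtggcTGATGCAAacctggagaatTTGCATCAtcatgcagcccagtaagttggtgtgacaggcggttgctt

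Library totals ran from 15940080 to 21824788 estimated counts, and levels are given as CPM, the count scaled to a common library size. The floor of detection was set at 3 counts, or 0.121 to 0.263 CPM, and covers counting error only. Icam1 mRNA itself stood at 18.7, 9.25, 4.31 and 138 CPM in CD54-negative replicates 1, 2, 3 and 5. In the CD54-positive ones it stood at 48.2, 58.4, 42.4 and 122 CPM. The log2 fold change of Icam1 over all libraries was 0.67 ± 0.92 (SE, adjusted p = 0.754 by edgeR). Its mRNA was thus highest in the library labelled CD54-negative replicate 5. The sort was on surface protein, which mRNA need not follow, so this does not show a wrong label. That library is called by its label below. The summed level of 14 neutrophil markers was 7880 to 38000 CPM in CD54-negative and 1999 to 4921 CPM in CD54-positive libraries, with 6 of the 14 called lower by edgeR. That of 14 macrophage markers was 816 to 1174 CPM and 5697 to 16300 CPM in the same order, with 10 of the 14 called higher. In CD54-positive replicates 1, 2, 3 and 5 the neutrophil sum was 3316, 4921, 2604 and 1999 CPM. The macrophage sum there was 8837, 5697, 5859 and 16300 CPM, the larger in each library. In each CD54-negative library the neutrophil sum was the larger. Dendritic cell markers summed to 25.4 to 195 and 229 to 518 CPM, T and NK cell markers to 5.96 to 39.7 and 78.1 to 190 CPM, and B and plasma cell markers to 124 to 736 and 209 to 610 CPM. Much of the last sum was Sdc1, a gene of plasma cells and other cell types, at 96.0 to 666 and 92.5 to 180 CPM. Of the 8 B and plasma cell markers tested 7 had positive log2 fold changes and 0 were called by edgeR; Cd79b, at 0.512 to 13.2 and 13.8 to 50.3 CPM, did not overlap. The plasma cell gene Tnfrsf17 had a mean of 0 CPM in CD54-negative and 0.0276 CPM in CD54-positive libraries, and Jchain 0.307 and 12.04 CPM. Cd79a, Pax5 and Mzb1 were at 0 in at least 1 library. Fibroblast markers summed to 1797 to 2780 and 459 to 1985 CPM, and epithelial markers, of which Epcam, Krt8, Krt18, Krt14, Krt19 and Cdh1 were at 0 in at least 1 library, to 13.98 to 76.8 and 14.1 to 33.8 CPM. Positive log2 fold changes were found for 5 of 5 dendritic, 7 of 7 T and NK, 1 of 8 fibroblast and 2 of 4 epithelial markers tested. Of these edgeR called Cd4 higher (means 1.06 and 43.1 CPM, adjusted p = 0.0451) and Col6a1 lower (means 255 and 38.7 CPM, adjusted p = 0.0327). The part of these other cells in the values below was not tested, and fewer cells of a type cannot be told apart from less RNA per cell.

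No gene of either arm was past the threshold between the fractions. The test was edgeR's quasi-likelihood test over 13575 genes with a Benjamini-Hochberg adjusted p under 0.05, which called 1.5% of all genes (1.22% higher and 0.273% lower). At an unadjusted p under 0.05 there were 6 lower and 1 higher gene among the 32, against 8.96% lower and 7.96% higher of all genes, and all 6 of the lower ones (Slc7a5, Asns, Sesn2, Ddit4, Nupr1 and Slc7a11) were in the ATF4 arm. DESeq2 called 3 members lower, Asns, Slc7a5 and Sesn2, against 9.56% of all genes called in either direction (4.53% higher and 5.03% lower); it gave no adjusted p for Slc7a11. The limma-voom test with sample weights called 2, Asns and Slc7a5, against 5.96% in either direction (3.39% higher and 2.57% lower). The fractions did not overlap for 6 of 32 genes, 4 higher (Cebpg, Shmt2, Mthfd2 and Sdf2l1) and 2 lower (Asns and Slc7a5) in CD54-positive libraries, against 11.4% of all genes (7.51% higher and 3.89% lower). Without the library labelled CD54-negative replicate 5, edgeR still called 0 members.

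With all 8 libraries the ATF4 arm lay below and the ATF6 and XBP1 arm near the centre of all genes. The median log2 fold change, CD54-positive minus CD54-negative, was -1.03 over the 18 genes of the ATF4 arm, 0.04 over the 14 genes of the other arm and -0.07 over all genes tested. In the ATF4 arm 14 genes had negative and 4 positive values. In the ATF6 and XBP1 arm there were 7 of each. Under RLE, upper-quartile and library-size scaling the ATF4 arm's median was -1.13, -0.89 and -0.65 and that of the other arm -0.02, 0.17 and 0.19, with the median of all genes at -0.13, 0.06 and 0.17. Without the library labelled CD54-negative replicate 5 the medians were -0.54 and -0.11, with that of all genes at 0.07. The ATF4 arm then had 10 negative and 8 positive values, and the other arm 10 negative and 4 positive. The ATF4 arm's median thus moved toward zero, and the sign counts of both arms depended in part on this 1 library. Without both libraries numbered 5, where Trib3 was not tested, the ATF4 arm's median was -0.81 and the other arm's -0.12, with all genes at 0.0078. The ATF4 arm then had 9 negative and 8 positive values, and the other arm 10 negative and 4 positive. With a term for replicate number the ATF4 arm's median was -0.995, with all genes at 0.09.

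**Figure D1:**
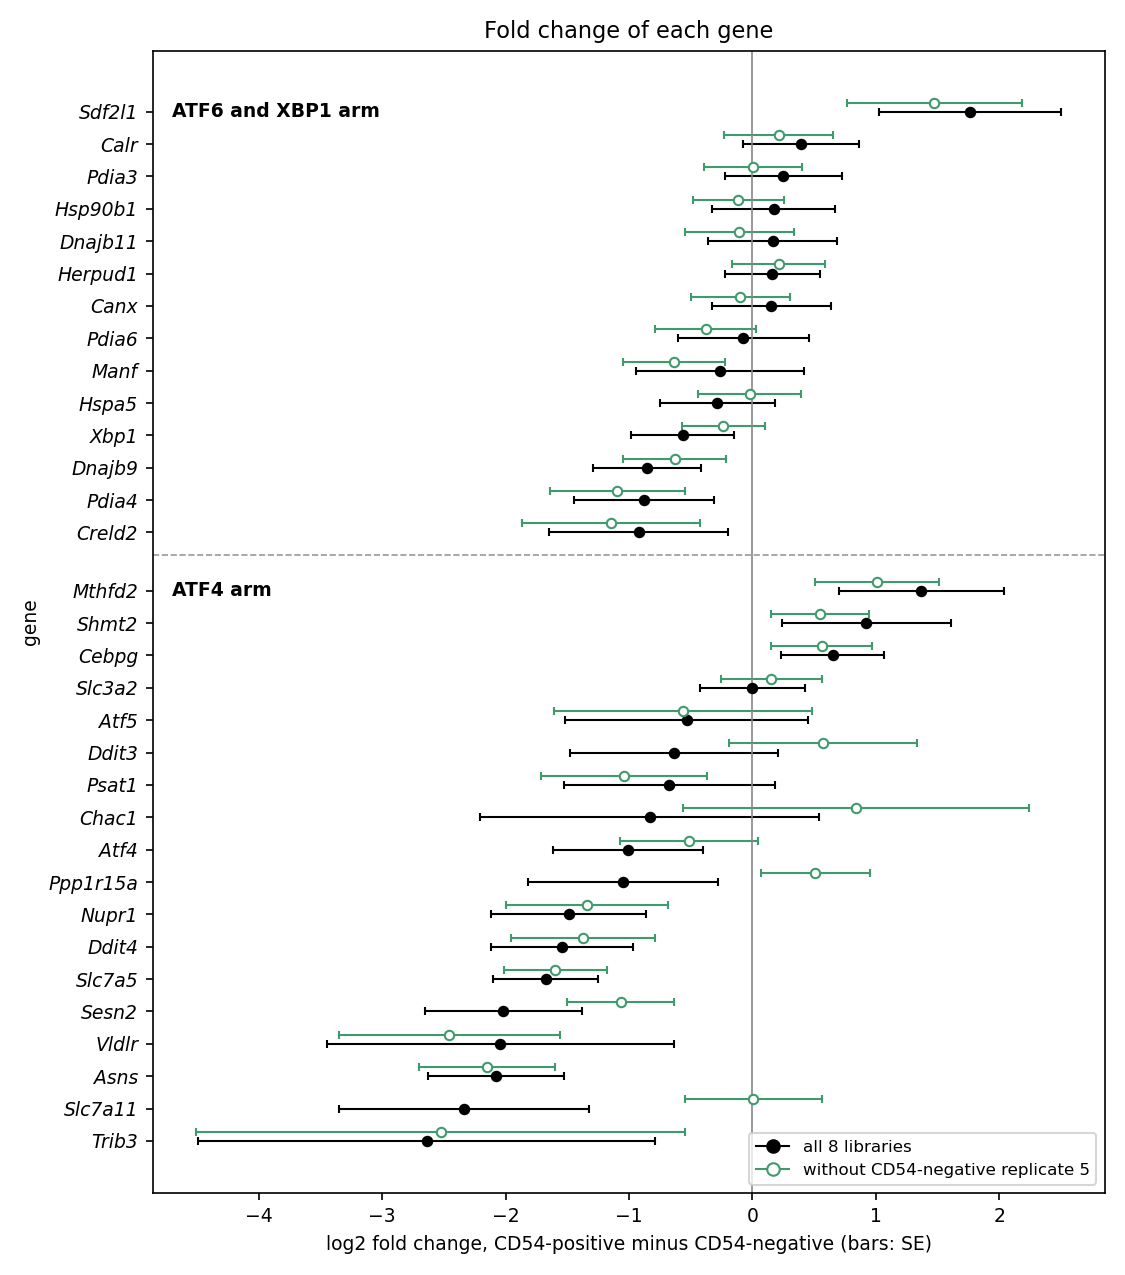
Log2 fold change of each gene (x axis, CD54-positive minus CD54-negative, bars are the standard error) with all 8 libraries (filled) and without CD54-negative replicate 5 (open). Asns and Slc7a5 keep their place, while Slc7a11 moves from -2.34 to 0.0081 and Ppp1r15a from -1.05 to 0.51.

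The smallest p-values of the ATF4 arm belonged to a pair of amino acid supply genes, neither past the edgeR threshold. Asns (ENSMUSG00000029752), asparagine synthetase, stood at 35.6, 21.3, 54.7 and 29.6 CPM in CD54-negative replicates 1, 2, 3 and 5 and at 10.9, 7.61, 7.24 and 7.68 CPM in the CD54-positive ones. Every CD54-positive library was thus below every CD54-negative one, with means of 8.36 ± 1.72 and 35.3 ± 14.2 CPM (SD, n = 4), 4.22-fold lower by the fit. Its log2 fold change was -2.08 ± 0.55 (SE; adjusted p = 0.0868 by edgeR, DESeq2 adjusted p = 0.001404, limma-voom adjusted p = 0.0386), and it was -2.15 ± 0.55 without CD54-negative replicate 5. Slc7a5 (ENSMUSG00000040010), the light chain of the large neutral amino acid transporter LAT1, stood at 103, 78.5, 85.4 and 108 CPM in CD54-negative and at 27.98, 20.3, 43.3 and 25.95 CPM in CD54-positive libraries. The fractions again did not overlap, and the mean went from 93.7 ± 13.98 to 29.4 ± 9.82 CPM (SD, n = 4), 3.19-fold lower by the fit. The log2 fold change was -1.67 ± 0.42 (SE; adjusted p = 0.0770 by edgeR, the smallest of the 32 genes; DESeq2 adjusted p = 0.003255, limma-voom adjusted p = 0.0242).

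The other transporter genes overlapped between the fractions. Slc3a2, the heavy chain that LAT1 and the cystine transporter share, stood at 111, 114, 223 and 215 CPM in CD54-negative and at 233, 138, 120 and 172 CPM in CD54-positive libraries. Its mean was 166 ± 61.3 against 166 ± 50.1 CPM (SD, n = 4), a difference of 0.0002 ± 0.43 on the log2 scale (SE; adjusted p = 0.9999 by edgeR). Slc7a11 (ENSMUSG00000027737), the cystine-glutamate exchanger that feeds glutathione synthesis, stood at 129, 73.1, 26.4 and 1317 CPM in CD54-negative and at 91.4, 108, 62.4 and 44.3 CPM in CD54-positive libraries. A single library, CD54-negative replicate 5, was far above the other 7, which overlapped between the fractions. The log2 fold change of -2.34 ± 1.01 (SE; adjusted p = 0.2745 by edgeR) became 0.0081 ± 0.55 without that library (edgeR adjusted p = 0.995). The levels of Slc7a11 and Asns thus differed in how they were spread over the libraries. Whether their composite sites bear on this was not tested.

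Mthfd2 and Shmt2, both enzymes of mitochondrial one-carbon metabolism, had positive values that were not past the threshold. Of other mitochondrial folate enzymes that are no members of the arm, Aldh1l2 had a negative value (-2.58 ± 1.45 SE, adjusted p = 0.394 by edgeR). Mthfd1l had a positive one (0.49 ± 0.67 SE, adjusted p = 0.755 by edgeR). Mthfd2 (ENSMUSG00000005667), which oxidises methylene-tetrahydrofolate in mitochondria, stood at 20.4, 25.2, 11.0 and 2.46 CPM in CD54-negative and at 36.4, 36.4, 30.7 and 49.3 CPM in CD54-positive libraries. Shmt2, the mitochondrial serine hydroxymethyltransferase, stood at 34.0, 42.8, 66.4 and 3.16 CPM in CD54-negative and at 67.7, 69.9, 70.9 and 69.1 CPM in CD54-positive libraries. For both genes each CD54-positive library was above each CD54-negative one, for Shmt2 by a small margin. The log2 fold changes were 1.37 ± 0.67 for Mthfd2 (SE; adjusted p = 0.327 by edgeR) and 0.92 ± 0.68 for Shmt2 (edgeR adjusted p = 0.526), and 1.01 ± 0.50 and 0.55 ± 0.40 without CD54-negative replicate 5, where both genes were lowest. Psat1, the phosphoserine aminotransferase of serine synthesis, stood at 13.7, 58.5, 126 and 4.21 CPM in CD54-negative and at 33.3, 49.8, 14.5 and 29.8 CPM in CD54-positive libraries, with full overlap. Phgdh, the first enzyme of serine synthesis and no member of the arm, was low in both fractions (1.81 ± 0.487 against 1.75 ± 2.10 CPM; SD, n = 4).

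Sesn2, Ddit4, Ppp1r15a, Chac1 and Trib3, ATF4-arm genes that act as feedback regulators, growth inhibitors or a glutathione-degrading enzyme, had negative values that were not past the edgeR threshold. The values of Ppp1r15a and Chac1 turned positive without CD54-negative replicate 5, and that of Trib3 rested on a few libraries above the floor. Sesn2 (ENSMUSG00000028893), a leucine sensor that inhibits mTORC1, stood at 53.6, 115, 145 and 491 CPM in CD54-negative and at 38.1, 44.0, 62.6 and 54.1 CPM in CD54-positive libraries. CD54-negative replicate 1 lay within the CD54-positive range and the other 3 above it. The log2 fold change was -2.02 ± 0.63 (SE; adjusted p = 0.1445 by edgeR, DESeq2 adjusted p = 0.023, limma-voom adjusted p = 0.193), and -1.07 ± 0.43 without CD54-negative replicate 5. Ddit4 (ENSMUSG00000020108), the mTORC1 inhibitor REDD1, which hypoxia and glucocorticoids also induce, stood at 117, 71.9, 41.7 and 117 CPM in CD54-negative and at 10.7, 25.98, 26.1 and 56.5 CPM in CD54-positive libraries. The fractions met at CD54-negative replicate 3 and CD54-positive replicate 5, and the log2 fold change was -1.54 ± 0.57 (edgeR adjusted p = 0.209).

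Ppp1r15a (GADD34), the phosphatase subunit that reverses eIF2 alpha phosphorylation, stood at 121, 50.04, 102 and 800 CPM in CD54-negative and at 180, 125, 78.3 and 136 CPM in CD54-positive libraries. Its log2 fold change of -1.05 ± 0.77 (SE; adjusted p = 0.5235 by edgeR) turned to 0.51 ± 0.44 without CD54-negative replicate 5. Chac1, which degrades glutathione, stood at 3.38, 0.652, 4.21 and 27.2 CPM in CD54-negative and at 15.4, 0.765, 0.145 and 3.53 CPM in CD54-positive libraries, and no direction could be read from it. Trib3, a pseudokinase that feeds back on ATF4 and CHOP, was at 0 CPM in CD54-negative replicate 3 and CD54-positive replicate 1, under the floor in CD54-positive replicates 2 and 3, and highest in CD54-negative replicate 1 at 10.04 CPM. It stood at 5.18 CPM in CD54-negative replicate 5 and at 2.37 CPM in CD54-positive replicate 5. The fitted value of Trib3, -2.64 ± 1.85, therefore rested on a few libraries above the floor, and was -1.61 without CD54-negative replicate 1.

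Among the transcription factors no level parted the fractions except that of Cebpg. Atf4 (ENSMUSG00000042406) stood at 379, 106, 162 and 568 CPM in CD54-negative and at 57.8, 127, 180 and 240 CPM in CD54-positive libraries, with overlap, and differed by -1.01 ± 0.61 on the log2 scale (SE; adjusted p = 0.43 by edgeR). Ddit3 (ENSMUSG00000025408), which encodes CHOP, stood at 8.60, 10.02, 2.18 and 43.2 CPM in CD54-negative and at 6.41, 10.3, 11.8 and 12.8 CPM in CD54-positive libraries. The CD54-positive libraries lay close together, and the value of -0.63 ± 0.84 (edgeR adjusted p = 0.748) turned to 0.57 ± 0.76 without CD54-negative replicate 5.

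Cebpg, a partner with which ATF4 binds the composite site, stood at 32.5, 34.5, 38.5 and 26.4 CPM in CD54-negative and at 66.9, 54.3, 45.1 and 40.8 CPM in CD54-positive libraries, without overlap, a difference of 0.65 ± 0.42 on the log2 scale (SE; adjusted p = 0.4585 by edgeR). Nupr1, a small stress-induced chromatin protein, stood at 58.7, 34.0, 21.7 and 54.6 CPM in CD54-negative and at 4.37, 12.005, 25.6 and 18.3 CPM in CD54-positive libraries. Only CD54-negative replicate 3 lay within the CD54-positive range of Nupr1, and the log2 fold change was -1.49 ± 0.63 (edgeR adjusted p = 0.261). Atf5, a relative of ATF4 tied to the mitochondrial stress response, ranged from 3.20 to 10.9 CPM in CD54-negative and from 0.760 to 14.5 CPM in CD54-positive libraries (log2 fold change -0.53 ± 0.98; edgeR adjusted p = 0.8255). Vldlr, the very low density lipoprotein receptor, stood at 174, 109, 166 and 0 CPM in CD54-negative and at 59.0, 11.2, 37.6 and 1.21 CPM in CD54-positive libraries, so that both libraries numbered 5 were lowest in their fraction. Its log2 fold change was -2.04 ± 1.41 (edgeR adjusted p = 0.49), and -2.45 ± 0.89 without CD54-negative replicate 5 (edgeR adjusted p = 0.1425) and -2.76 without CD54-positive replicate 1.

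**Figure D2:**
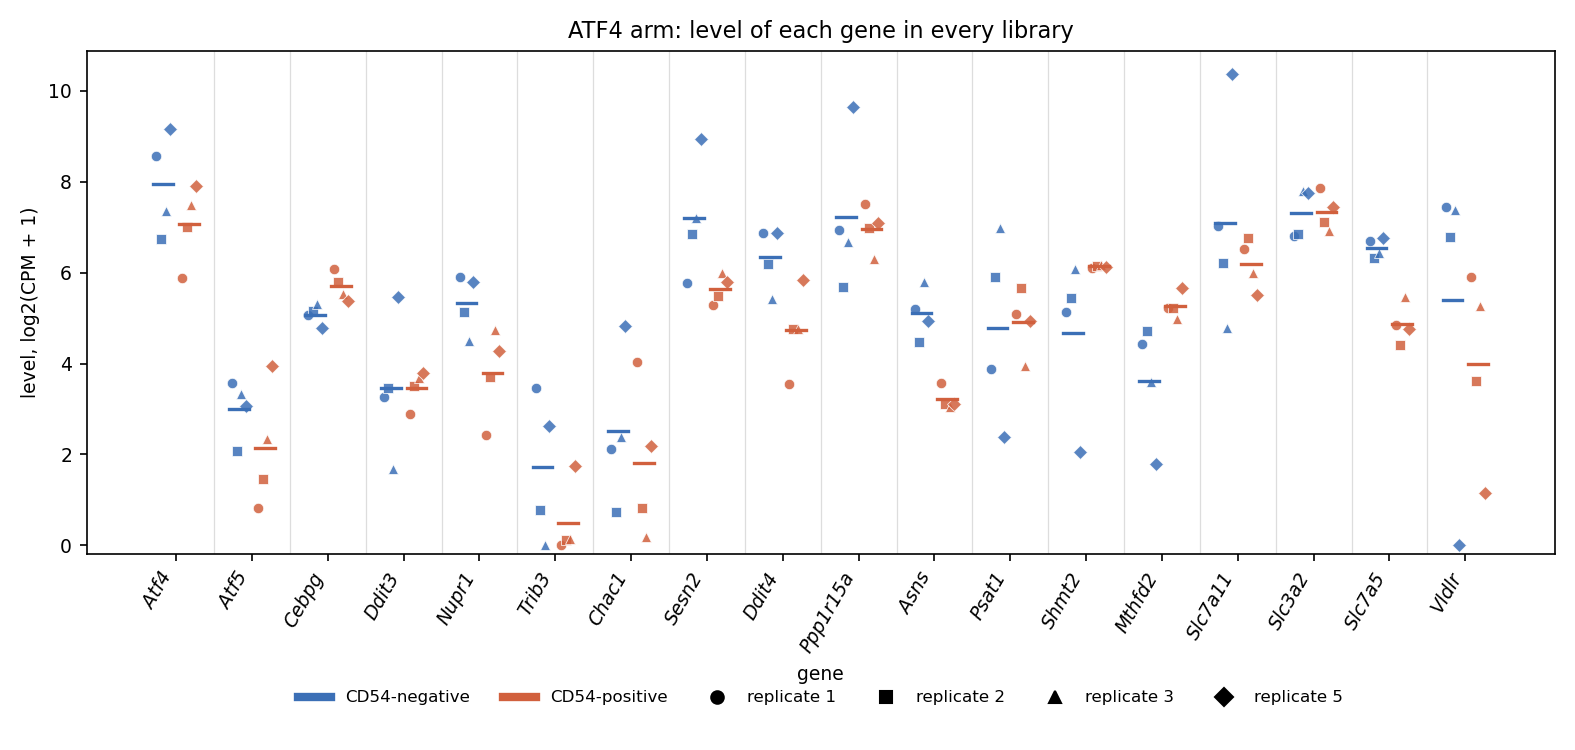
Level of each ATF4-arm gene on a log2(CPM + 1) scale (y axis) in the 4 CD54-negative (blue) and 4 CD54-positive (orange) libraries; the shape gives the replicate number and the line is the mean of the log2 values. Asns and Slc7a5 are lower in every CD54-positive library, Cebpg, Shmt2 and Mthfd2 higher, and CD54-negative replicate 5 stands far above the others for Slc7a11, at 1317 CPM, and for Ppp1r15a, at 800 CPM.

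Chaperone genes were among the most abundant of the 32, and none was past the threshold by edgeR, DESeq2 or limma-voom. Per kilobase of the gene length in the table, Manf had the highest mean level, 862 CPM per kb in CD54-negative and 718 in CD54-positive libraries. It was followed in CD54-negative libraries by Xbp1 with 282, Hspa5 with 272, Ppp1r15a with 233 and Atf4 with 221 CPM per kb. In CD54-positive libraries Hspa5 with 223 and Xbp1 with 191 came next, and Trib3 was lowest in both with 2.49 and 0.399 CPM per kb. Over libraries, all 31 pairs of neighbours in the CD54-negative order overlapped, and so did 30 of 31 in the CD54-positive order, the exception being Manf, at 461 to 1018 CPM per kb, above Hspa5, at 162 to 369 CPM per kb.

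The central chaperone Hspa5 (BiP; ENSMUSG00000026864), which holds the sensors inactive, stood at 682, 387, 439 and 909 CPM in CD54-negative and at 376, 361, 430 and 820 CPM in CD54-positive libraries. Both libraries numbered 5 were highest in their fraction, and the log2 fold change was -0.28 ± 0.47 (SE; adjusted p = 0.802 by edgeR). Xbp1 (ENSMUSG00000020484), spliced and unspliced forms together, stood at 371, 330, 346 and 705 CPM in CD54-negative and at 320, 243, 349 and 272 CPM in CD54-positive libraries. Apart from replicate 5 the fractions overlapped closely, and the log2 fold change was -0.57 ± 0.42 (edgeR adjusted p = 0.524), or -0.24 ± 0.34 without CD54-negative replicate 5. Hsp90b1 (GRP94) stood at 325, 446, 591 and 120 CPM in CD54-negative and at 535, 440, 366 and 331 CPM in CD54-positive libraries (0.17 ± 0.50; edgeR adjusted p = 0.8955).

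Sdf2l1 (ENSMUSG00000022769), a cofactor of the BiP cycle, was the only gene of the chaperone arm whose fractions did not overlap. It stood at 7.63, 18.9, 3.19 and 2.72 CPM in CD54-negative and at 19.7, 19.9, 26.02 and 44.9 CPM in CD54-positive libraries, 3.40-fold higher by the fit. CD54-negative replicate 2 came within 1 CPM of the lowest CD54-positive library, and the log2 fold change of 1.77 ± 0.74 was not past the threshold (SE; adjusted p = 0.2575 by edgeR). The value was 2.61 without CD54-negative replicate 2 and 1.16 without both libraries numbered 5. The co-chaperone Dnajb9 (ERdj4), which returns BiP to IRE1, stood at 56.0, 42.1, 57.3 and 86.6 CPM in CD54-negative and at 43.4, 26.7, 28.3 and 35.6 CPM in CD54-positive libraries, overlapping at 1 library of each (-0.85 ± 0.43; edgeR adjusted p = 0.345). Dnajb11 (ERdj3) ranged from 40.3 to 203 CPM in CD54-negative and from 78.0 to 184 CPM in CD54-positive libraries (0.17 ± 0.52; edgeR adjusted p = 0.903).

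The disulfide isomerases and lectin chaperones overlapped throughout. Pdia4 stood at 100.2, 66.5, 56.4 and 33.2 CPM in CD54-negative and at 11.5, 25.9, 45.9 and 56.4 CPM in CD54-positive libraries (log2 fold change -0.88 ± 0.57 SE; adjusted p = 0.4598 by edgeR). Pdia3, the isomerase that works with calreticulin and calnexin, had a log2 fold change of 0.25 ± 0.47, Pdia6 of -0.07 ± 0.53, Calr (calreticulin) of 0.40 ± 0.47 and Canx (calnexin) of 0.15 ± 0.48 (adjusted p between 0.712 and 0.9585 by edgeR). Each of these 4 intervals of 1 SE spans zero.

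Herpud1, a part of the ER degradation machinery and the gene of its arm with a composite site, ranged from 97.9 to 134 CPM in CD54-negative and from 104 to 193 CPM in CD54-positive libraries, with the smallest standard error of the 32 genes (0.16 ± 0.39 log2 fold change). Creld2, an ER-resident stress protein, stood at 28.2, 5.57, 47.5 and 11.5 CPM in CD54-negative and at 8.27, 11.7, 9.22 and 19.8 CPM in CD54-positive libraries (-0.92 ± 0.72; edgeR adjusted p = 0.554), and without CD54-negative replicate 3 the value was -0.30. Manf, a secreted ER stress protein, stood at 656, 709, 1325 and 71.4 CPM in CD54-negative and at 816, 370, 562 and 553 CPM in CD54-positive libraries. CD54-negative replicate 5 was again apart for Manf, here below the other 7, and the log2 fold change was -0.26 ± 0.68 (edgeR adjusted p = 0.880). The genes with an ER stress element shown above ranged from -0.92 (Creld2) to 0.40 (Calr) in log2 fold change, on both sides of zero.

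**Figure D3:**
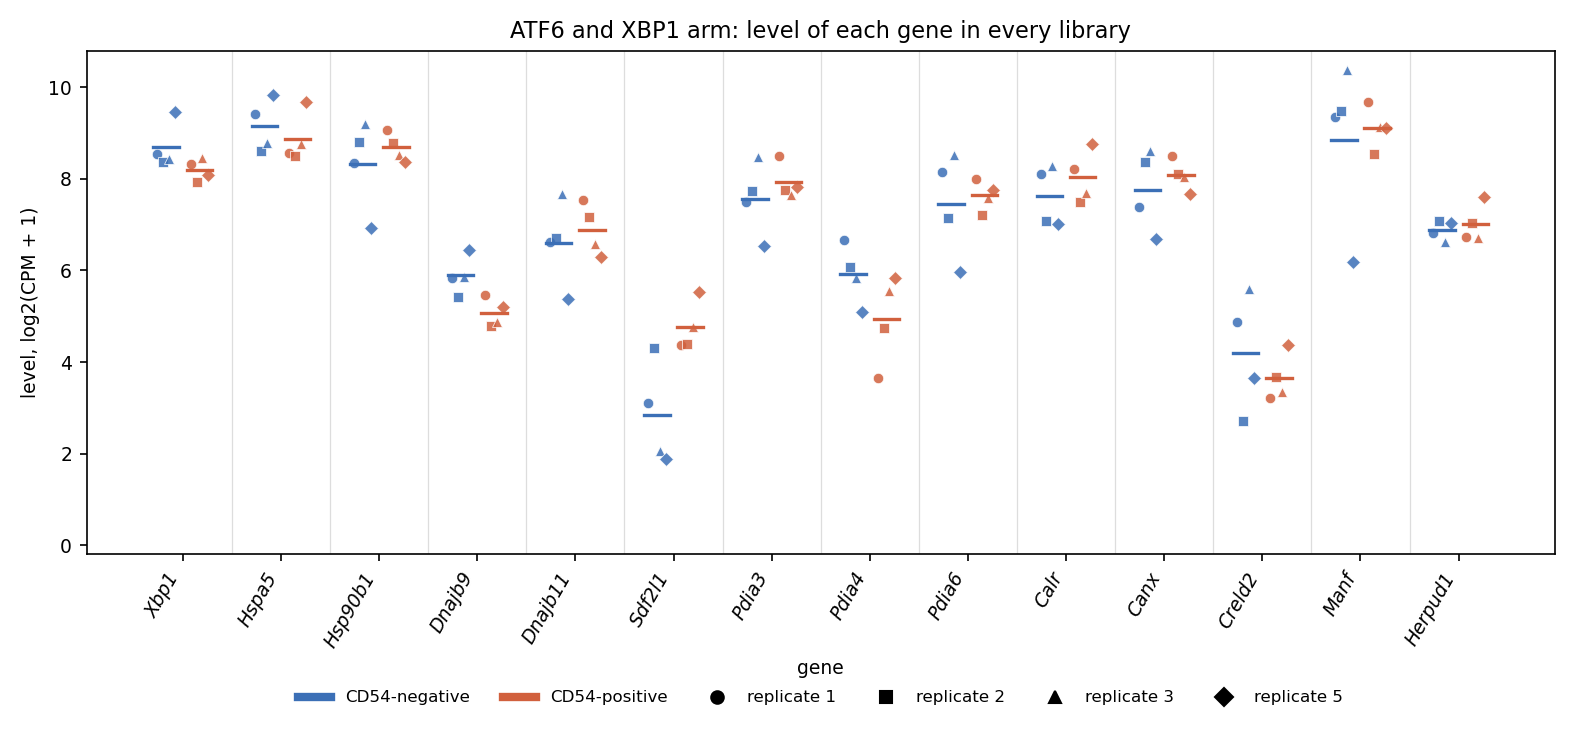
Level of each gene of the ATF6 and XBP1 arm on a log2(CPM + 1) scale (y axis) in the 4 CD54-negative (blue) and 4 CD54-positive (orange) libraries; the shape gives the replicate number and the line is the mean of the log2 values. Sdf2l1 alone does not overlap, and CD54-negative replicate 5 is the highest library for Xbp1 (705 CPM) and the lowest for Manf (71.4 CPM).

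The arms were farthest apart in CD54-negative replicate 5. As a deviation from each gene's mean over the 8 libraries, on the log2(CPM + 1) scale, the median of that library was 1.14 over the ATF4 arm, -1.02 over the ATF6 and XBP1 arm and -0.20 over all genes tested. In the other 7 libraries the medians lay between -0.65 and 0.17 for the ATF4 arm and between -0.30 and 0.58 for the other arm. The library was the highest of the 8 for 11 of the 32 genes and the lowest for 13, against 21.1% and 24.4% of all genes. Highest there were Atf4, Ddit3, Chac1, Sesn2, Ddit4, Ppp1r15a, Slc7a11 and Slc7a5 of the ATF4 arm, and Xbp1, Hspa5 and Dnajb9 of the other. Lowest there were Cebpg, Psat1, Shmt2, Mthfd2 and Vldlr of the ATF4 arm, and Hsp90b1, Dnajb11, Sdf2l1, Pdia3, Pdia6, Calr, Canx and Manf of the other.

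That library had the smallest total, 15940080 counts, and its size after TMM scaling was 11400836, so that its CPM values stand higher on the TMM scale than by total alone. It also had the highest neutrophil marker sum, 38000 CPM against 7880 to 17390 in the other CD54-negative libraries, and the high Icam1 given above; the part of these in its stress gene levels was not tested. Summed over the arm, ATF4-arm genes took 1415, 949, 1286 and 3819 CPM in CD54-negative and 941, 842, 820 and 978 CPM in CD54-positive libraries. The sums of the ATF6 and XBP1 arm were 3338, 3058, 4590 and 2492 CPM in CD54-negative and 3692, 2588, 2872 and 3476 CPM in CD54-positive libraries, with full overlap.

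**Figure D4:**
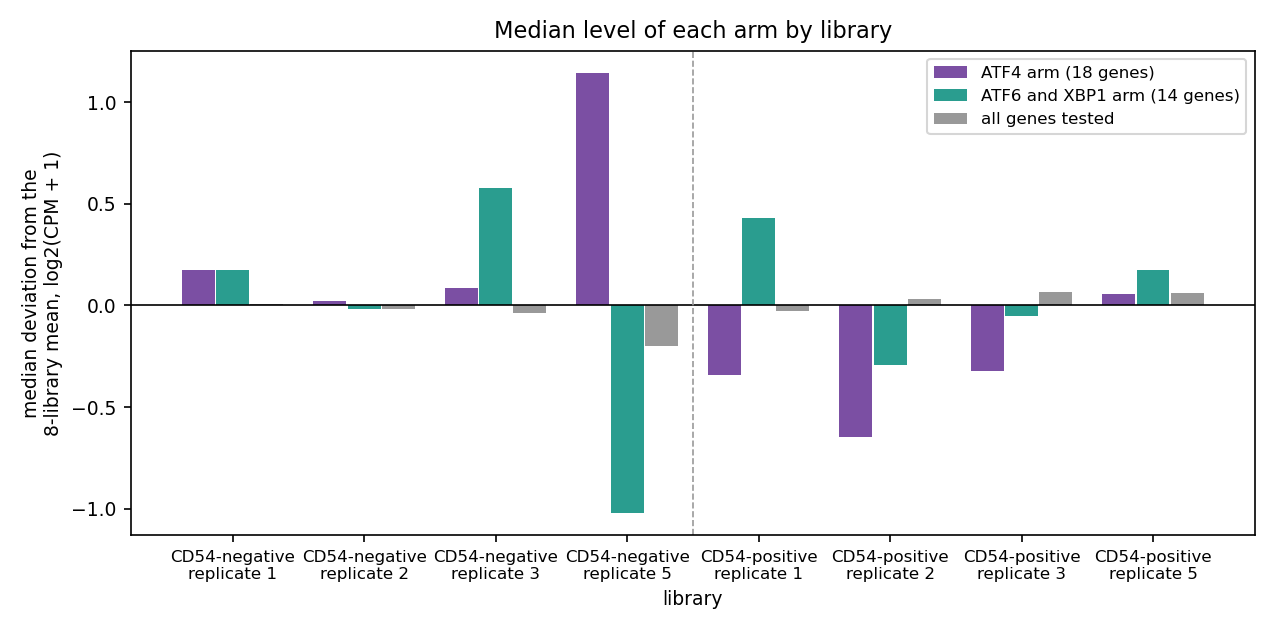
Median over genes of the deviation from the gene's mean over 8 libraries, in log2(CPM + 1) (y axis, bars from 0), for the ATF4 arm, the ATF6 and XBP1 arm and all genes tested in each library. In CD54-negative replicate 5 the ATF4 arm is at 1.14 and the ATF6 and XBP1 arm at -1.02; in no other library do the bars reach 0.7 in size.

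Other genes of the pathway, listed by role, were also not past the edgeR threshold. Of 11 sensors and regulators of eIF2 alpha, 0 were called by edgeR, DESeq2 or limma-voom, and 2 were lower at an unadjusted p under 0.05 by edgeR, the threshold that 8.96% of all genes passed as lower. These were Eif2ak3, the gene of PERK, and Ppp1r15b, the constitutive partner of the eIF2 alpha phosphatase. Eif2ak3 stood at 87.1, 128, 121 and 93.2 CPM in CD54-negative and at 34.7, 50.6, 68.8 and 38.6 CPM in CD54-positive libraries, without overlap (log2 fold change -1.16 ± 0.41 SE; adjusted p = 0.1916 by edgeR). Ppp1r15b stood at 150, 250, 113 and 324 CPM in CD54-negative and at 106, 105, 93.8 and 112 CPM in CD54-positive libraries, also without overlap (-1.01 ± 0.43; edgeR adjusted p = 0.264). The sensor genes Ern1 and Atf6 had values of -0.04 ± 0.78 and 0.59 ± 0.54.

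Of 30 further ER folding, export and degradation genes, 0 were called by edgeR, DESeq2 or limma-voom. At an unadjusted p under 0.05 by edgeR 2 were higher and 1 lower (7.96% and 8.96% of all genes). The median log2 fold change was -0.29, with 23 negative and 7 positive values, against 47.7% positive over all genes tested. The smallest p were those of Dnajc10, an ER disulfide reductase, at -1.05 ± 0.41 (SE; adjusted p = 0.230 by edgeR), and of Sec23b, a coat protein of ER export, at 1.06 ± 0.43 (edgeR adjusted p = 0.242). Of 29 tested further ATF4 targets, 0 were called by edgeR, with 2 higher and 3 lower at an unadjusted p under 0.05 (again 7.96% and 8.96% of all genes) and a median of -0.11. DESeq2 called Slc1a5 and Gdf15 higher and Stc2 lower among these targets, and limma-voom called Slc1a5 and Atf3 higher. These are 3 of 28 targets with an adjusted p in DESeq2, which called 9.56% of all genes, and 2 of 29 in limma-voom, which called 5.96%, so both shares were near the background.

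Slc1a5 (ENSMUSG00000001918), the glutamine transporter ASCT2, stood at 11.2, 14.5, 20.0 and 23.0 CPM in CD54-negative and at 82.0, 69.3, 59.7 and 49.6 CPM in CD54-positive libraries. It was higher in every CD54-positive library, 3.80-fold by the fit, or 1.93 ± 0.46 on the log2 scale (SE; adjusted p = 0.0634 by edgeR), the opposite direction to Slc7a5, although both carry neutral amino acids. Gdf15, a stress-induced cytokine, had means of 0.390 ± 0.370 and 4.73 ± 3.81 CPM (SD, n = 4), with a fitted value of 3.57 ± 1.16 (SE; adjusted p = 0.1558 by edgeR), with CD54-negative replicates 3 and 5 under the detection floor. The 12 aminoacyl-tRNA synthetases of the list ranged from -0.41 to 0.63 in log2 fold change, with a median of -0.04 and 0 of 12 past an unadjusted p of 0.05 or called by DESeq2 or limma-voom.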

How the data were processed

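RNA sequencing of 8 sorted libraries was deposited as 1 table. Per the submitters' processing notes the authors used Trim Galore 0.6.6, Salmon 1.9.0 and GRCm39 (mm39); annotation and settings were not given in the sources used here. What the authors deposited are gene-level estimated counts beside identifier, symbol and length, and each sample's description names its column. Of 25669 rows, 88 identifiers were repeated with the same values, and each was kept once (25572).

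Counts were rounded. Genes were filtered by filterByExpr (13575 kept) and scaled by TMM, and CD54-positive was compared with CD54-negative libraries in edgeR 4.0.16 (R 4.3.3; quasi-likelihood, robust, group only). The standard error is the log2 fold change divided by the square root of F. CPM uses TMM-adjusted sizes, and the biological coefficient of variation was 0.858. Amplification from 150 pg without stated molecular identifiers means counts need not equal molecules. DESeq2 1.42.0 and limma 3.58.1 (voom) were alternatives, with other scalings, filters, a replicate term and libraries left out. DESeq2's missing adjusted p-values were left missing. The fits were also run on simulated counts with set fold changes. How many of these changes they called is not given here, so the power of the tests is not stated. Promoter windows of 250 bases were searched by exact letters.

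The members and lists were chosen with earlier results of these data known. All 32 members are described. Values in every library are given for members without overlap, for the 5 of each arm with the smallest p, and for Atf4, Xbp1, Ddit3 and Icam1; those of Slc3a2, Slc7a11, Ppp1r15a, Chac1, Psat1, Vldlr, Hspa5, Hsp90b1 and Manf were added after they were seen. Of other pathway genes the 2 with the smallest p in each list are named, and Phgdh, Aldh1l2, Mthfd1l, Ern1, Atf6, Stc2 and Atf3 were added later.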

Additional observations from a re-analysis of the deposited data

Results flagged for a closer look

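Of 64 groups of 4 libraries (32 genes in both fractions), 8 held a library set apart from its fraction by Dixon's gap test at the 95% level. For normally distributed values chance gives about 1 in 20, but the test was run on CPM values, which need not be normal. Over all genes tested 12.9% of groups were so set apart against 12.5% here, so the number is near the background. CD54-negative replicate 5 was the high library in 4 of the 8: Slc7a11 at 1317 CPM (others 26.4 to 129), Ppp1r15a at 799.7 CPM (others 50.04 to 121), Xbp1 at 704.6 CPM (others 330.0 to 371) and Chac1 at 27.2 CPM (others 0.652 to 4.21). CD54-positive replicate 5 was high for Hspa5, at 820.0 CPM (others 361 to 430), and for Trib3, at 2.37 CPM (others 0 to 0.0966). CD54-positive replicate 1 was high for Asns, at 10.9 CPM (others 7.24 to 7.68), and for Pdia3, at 360.1 CPM (others 198 to 224).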

How the results depend on the processing

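Across 17 alternatives 18 of 32 genes kept the sign of their log2 fold change wherever they were tested and 14 did not. Atf5 and Chac1 were tested in 16 of the alternatives and Trib3 in 15. None of the sign changes was past a threshold in either fit, and their causes were not tested. With RLE scaling and DESeq2, Slc3a2 was -0.0701 and -0.07. Pdia6 was 0.0462 with upper-quartile scaling and 0.0621 with library sizes only. With limma-voom Ddit3 was 0.37 and Ppp1r15a 0.29. Without both libraries numbered 5, Ddit3 was 0.47, Chac1 0.98, Ppp1r15a 0.50, Slc7a11 0.21, Hsp90b1 -0.0039, Calr -0.0579 and Herpud1 -0.0056. Leaving out 1 library at a time gave -0.99 to 0.57 for Ddit3, -2.59 to 0.84 for Chac1, -1.39 to 0.51 for Ppp1r15a, -1.04 to 0.32 for Psat1, -2.72 to 0.0081 for Slc7a11, -0.22 to 0.18 for Slc3a2, -0.11 to 0.49 for Hsp90b1, -0.10 to 0.63 for Dnajb11, -0.0004 to 0.63 for Pdia3, -0.38 to 0.32 for Pdia6, -0.096 to 0.47 for Canx, -0.64 to 0.26 for Manf and -0.0501 to 0.27 for Herpud1. The median of the ATF4 arm was -1.43 to -0.54. Leaving out the library labelled CD54-negative replicate 5 gave the upper end for Ddit3, Chac1, Ppp1r15a, Slc7a11 and that median.

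Members called lower were 3 with DESeq2 and 2 with limma-voom and 0 in the other alternatives. Among all genes tested 166 were higher and 37 lower with edgeR; there were 584 and 649 with DESeq2, 460 and 349 with limma-voom, 258 higher with library sizes only, 120 lower without a filter, 61 lower with at least 10 CPM in 4 libraries, and 190 lower without both libraries numbered 5. Leaving out 1 library gave 4 (without CD54-negative replicate 1) to 337 (without CD54-negative replicate 5) higher and 0 to 241 lower. Without CD54-negative replicates 2 and 3 there were 73 and 121 higher and 3 and 48 lower, and without CD54-positive replicates 1, 2, 3 and 5 there were 42, 56, 71 and 56 higher and 1, 2, 9 and 2 lower.

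The labels do not say that equal numbers mark one mouse, so the numbers were not taken as pairs in the main fit. Deviations of same-numbered libraries correlated at -0.18, 0.11, 0.17 and 0.37 for 1, 2, 3 and 5. With the replicate block 280 genes were higher and 261 lower, 0 members were called, and Ddit3 was 0.0067, Psat1 0.31, Pdia6 0.17 and Manf 0.15. CD54-positive replicates 2, 3 and 5 each correlated best with their own number, and CD54-positive replicate 1 did not. For replicate 3 the margin was small, 0.1674 against 0.1672 with CD54-negative replicate 1. These correlations cannot decide whether equal numbers mark pairs. Genes near the floor, as Trib3 was in some libraries, are limited by depth there.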
